A study of Mus musculus with 24 samples.

Results

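Eicosanoids are signalling lipids made from arachidonic acid, which phospholipases free from membranes. Lipoxygenases turn it into leukotrienes and hydroxylated fatty acids, and cyclooxygenases turn it into prostaglandins and thromboxane. Prostaglandin E is known in mice and fish as a regulator of blood stem cells, and leukotrienes and prostaglandin D are best known in bone marrow from eosinophils, mast cells and macrophages. The 10 enzymes described here are Alox15, Alox5, Alox5ap, Alox12, Ltc4s, Lta4h, Ptgs1, Ptgs2, Hpgds and Ptges, chosen by name out of 55414 gene identifiers listed. All 10 passed the filter on low counts, which left 19616 genes to test. The set is named after Alox15. The values behind that choice are not stated, and the sex difference of Alox15 may have been among them, so that difference is given below as a description, with no test.

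The cells were LSK cells, the lineage-negative, Sca-1-positive and Kit-positive fraction of bone marrow that holds blood stem and multipotent progenitor cells. They were sorted from male and female pups at 21 days of age. The 4 groups of 6 libraries were male pups of C57BL/6J dams fed a Western diet (TD.88137), male pups of dams fed regular chow (2018SX), female pups of Western diet dams and female pups of chow dams. The dams ate their diet for 4 weeks before mating and kept it while pregnant and nursing, and chow is called control below. Each of 3 labelled batches held 2 libraries of each group. The labels tie no pup to a dam or litter, so the p-values below measure the spread between libraries only, and a litter effect cannot be told apart from a diet effect.

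Libraries held 38057263 to 51581968 counts in genes. Levels are given in CPM (counts scaled to a common library size with TMM) to compare libraries, and in RPKM (CPM per kilobase of exon) to compare genes. In these bulk samples fewer cells of a type and less RNA per cell cannot be told apart. Of the markers that define the sort, Kit averaged 536 ± 140 CPM and Ly6a, which encodes Sca-1, only 14.1 ± 7.46 CPM (SD, n = 24), with a range of 2.14 to 39.9 CPM. Both female control libraries of batch 3 stood apart, with the lowest values of all 24 libraries in Ptgs1, Alox5ap and Lta4h. Their values were 14.3 and 14.9 CPM for Ptgs1, 25.3 and 30.4 CPM for Alox5ap, and 258 and 277 CPM for Lta4h. The lowest summed level of 10 LSK markers in any library, 1123 CPM, was also in a female control library of batch 3. Calls of the members, pathway genes and markers in the female and averaged comparisons are given with and without them.

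The promoters of the cyclooxygenase genes are shown because Ptgs1 and Ptgs2, which catalyse the same step, differed in level and in spread between libraries. Each is the 250 bases before the RefSeq gene start on build GRCm38.p6, plus strand, 5′ to 3′, at chr2:36230176-36230425 for Ptgs1 and chr1:150099781-150100030 for Ptgs2. Capitals mark the motifs found.
Ptgs1: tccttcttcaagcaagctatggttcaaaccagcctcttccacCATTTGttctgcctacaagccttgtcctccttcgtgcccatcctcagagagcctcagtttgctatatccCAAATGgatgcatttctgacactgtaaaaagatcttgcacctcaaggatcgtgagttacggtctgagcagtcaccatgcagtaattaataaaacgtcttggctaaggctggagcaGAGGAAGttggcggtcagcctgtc
Ptgs2: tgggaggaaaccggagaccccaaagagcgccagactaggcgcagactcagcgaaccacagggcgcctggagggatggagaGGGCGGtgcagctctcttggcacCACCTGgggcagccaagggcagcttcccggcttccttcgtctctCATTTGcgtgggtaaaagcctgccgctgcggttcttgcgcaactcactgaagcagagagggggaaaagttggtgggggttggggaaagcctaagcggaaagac
Motifs were searched on both strands of this window in 32851 promoters. The E box (CANNTG), which 66.2% of all promoters hold, occurred at 208 and 139 bases before the start of Ptgs1 and at 147 and 103 bases before that of Ptgs2. The GC box (GGGCGG, in 32.7% of promoters) occurred in the Ptgs2 window at 170 bases and not in the Ptgs1 window. GAGGAAG, an ETS site of the PU.1 kind held by 10.6% of promoters, occurred in the Ptgs1 window at 24 bases and not in the Ptgs2 window. Neither window held TATAAA (12.4% of promoters), AGATAA (9.99%), TGANTCA (6.75%) or TGACG (17.8%), nor the full palindrome TGACGTCA (1.55%), which contains TGACG. These absences hold for the 250 bases shown only, since bases from the RefSeq start onward and further upstream were not searched. A match is a description of letters, not of a bound site. The RefSeq table gave windows for 8 of the 10 genes.

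Per length, the leukotriene pathway members Lta4h and Alox5ap were the most abundant of the 10, and Alox15, Ptges and Alox12 the least. Lta4h, the hydrolase that makes leukotriene B, averaged 67.3 ± 14.4 RPKM (SD, n = 24) and ranked above 95.1% of 19480 genes. Alox5ap, the membrane protein that presents arachidonic acid to Alox5, averaged 44.9 ± 11.5 RPKM. Ptgs1, the cyclooxygenase usually made constitutively, averaged 8.02 ± 1.95 RPKM. Next came Ptgs2, the inducible cyclooxygenase, at 3.66 ± 2.90 RPKM, Alox5, which makes the leukotriene precursor, at 3.25 ± 0.752 RPKM, Ltc4s, the leukotriene C synthase, at 3.18 ± 0.774 RPKM, and Hpgds, the hematopoietic prostaglandin D synthase, at 3.06 ± 1.13 RPKM. Alox15, the lipoxygenase of eosinophils and macrophages in mice, averaged 0.907 ± 0.403 RPKM. Ptges, an inducible prostaglandin E synthase, averaged 0.364 ± 0.105 RPKM. Alox12, the platelet lipoxygenase, was last at 0.356 ± 0.149 RPKM and ranked above 20.1% of genes.

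The order held library by library only at the large steps. Lta4h lay above Alox5ap, Alox5ap above Ptgs1, Hpgds above Alox15 and Alox15 above Ptges in 24 of 24 libraries, and Ptgs1 lay above Ptgs2 in 23. Within the middle run the neighbours did not differ beyond their spread: Ptgs2 exceeded Alox5 in 9 libraries, Alox5 exceeded Ltc4s in 11, and Ltc4s exceeded Hpgds in 13. Ptges exceeded Alox12 in 14 libraries. The least steady member was Ptgs2, with a coefficient of variation of 79.2% over the 24 libraries, followed by Alox15 at 44.4%, Alox12 at 41.9% and Hpgds at 36.8%, while the other 6 lay between 21.4% and 28.9%. Counts of the rare members were small, at 13 to 123 per library for Alox12, 19 to 103 for Ptges and 36 to 198 for Alox15.

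**Figure D1:**
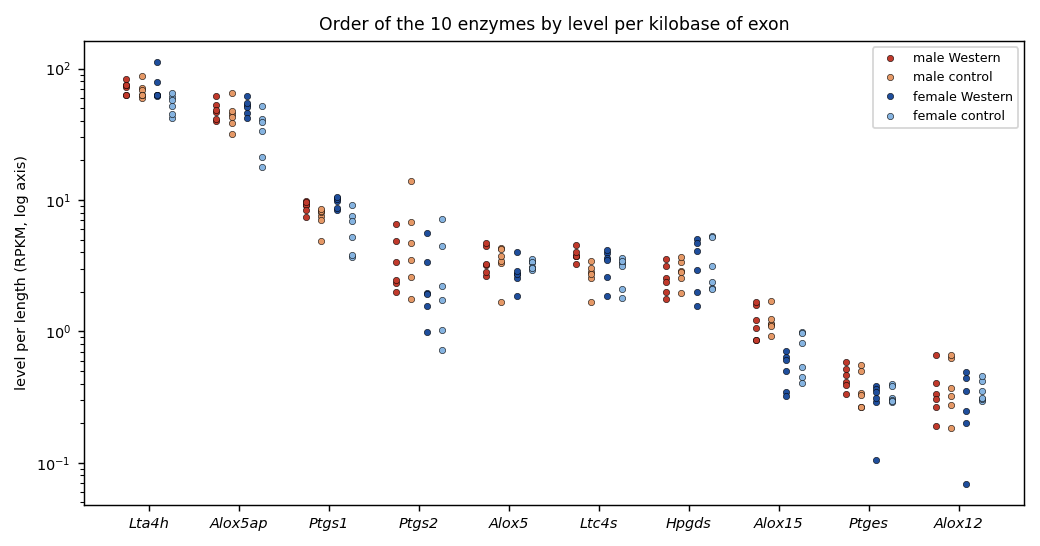
Level per kilobase of exon (RPKM, log axis) of each enzyme in each of the 24 libraries, coloured by group, in order of the mean. Lta4h and Alox5ap sit above the other 8 enzymes, and Alox15, Ptges and Alox12 sit at the bottom with means of 0.907, 0.364 and 0.356 RPKM.

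Ratios per length between enzymes of one branch varied more than their order. Ptgs1 over Ptgs2 had a median of 2.97 over the 24 libraries and ran from 0.540 to 8.48. Batch 1 had a median Ptgs1 over Ptgs2 ratio of 1.58, against 3.40 in batch 2 and 3.87 in batch 3. Alox5ap over Alox5 had a median of 14.2 and Lta4h over Ltc4s one of 19.9. Alox15 over Alox12 had a median of 2.59 and exceeded 1 in all 24 libraries.

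The first comparison asked whether maternal Western diet changed these enzymes in female pups, and in it Ptgs1 rose. Ptgs1 had a lowest, median and highest value of 32.6, 38.9 and 40.9 CPM in Western diet females, against 14.3, 23.7 and 35.3 CPM in control females. All 6 Western diet females lay above the control mean and 4 lay above every control female, so the groups overlapped. The means were 37.6 ± 3.55 CPM in Western diet females and 23.6 ± 8.40 CPM in control females (SD, n = 6 each), a 1.66-fold difference. The log2 fold change was 0.73 (SE 0.15, 95% interval 0.42 to 1.04, edgeR adjusted p = 0.00540). It was the 1 member called of 10, where 5.42% of all genes tested were called.

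The size of the Ptgs1 difference depended on batch 3. Within batches the log2 difference between Western diet and control females was 0.29 in batch 1, 0.50 in batch 2 and 1.46 in batch 3. Without both female control libraries of batch 3 the log2 fold change was 0.49 and no longer called (edgeR adjusted p = 0.148), and without all of batch 3 it was 0.38 (edgeR adjusted p = 0.255). Fitted on the 2 female groups alone it was 0.71 (edgeR adjusted p = 0.0658). In its counting, 3.81% of the Ptgs1 exon bases overlap Gm43621 on the opposite strand, and the library kit does not mark strand.

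No other member was called in females. Alox5ap had a lowest, median and highest value of 60.1, 73.7 and 88.5 CPM in Western diet females, against 25.3, 51.6 and 74.4 CPM in control females. All 6 Western diet females lay above the control mean and 3 above every control library. Its log2 fold change was 0.63 (SE 0.19, edgeR adjusted p = 0.0505), and 0.31, 0.12 and 1.58 within batches 1, 2 and 3. DESeq2 called it (adjusted p = 0.0230), as did the fit without a filter (edgeR adjusted p = 9.67e-04), and its log2 fold change without both female control libraries of batch 3 was 0.31. Of the Alox5ap exon bases, 13.3% overlap Gm19719 on the opposite strand. Lta4h had a lowest, median and highest value of 378.4, 386 and 688 CPM in Western diet females, against 258, 336 and 398 CPM in control females. The log2 fold change of Lta4h was 0.44 (SE 0.15, edgeR adjusted p = 0.0771), with 0.08, 0.11 and 1.11 within batches 1, 2 and 3. It was 0.22 without both female control libraries of batch 3 (edgeR adjusted p = 0.578), and the fit without a filter called Lta4h (edgeR adjusted p = 0.0170).

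The remaining enzymes showed no difference past the threshold in females. Alox15 averaged 1.27 ± 0.389 CPM in Western diet females and 1.70 ± 0.640 CPM in control females, a log2 fold change of -0.38 (95% interval -0.86 to 0.10, edgeR adjusted p = 0.360). Ptgs2 averaged 11.8 ± 7.78 CPM in Western diet females and 13.3 ± 11.5 CPM in control females. Its log2 fold change of 0.05 had a 95% interval of -0.50 to 0.61, and turned to -0.28 without both female control libraries of batch 3. Hpgds averaged 21.8 ± 9.25 CPM in Western diet females and 21.8 ± 9.77 CPM in control females. The log2 fold changes of Alox5, Alox12, Ltc4s and Ptges were -0.21, -0.32, 0.17 and -0.15, with edgeR adjusted p from 0.578 to 0.777.

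**Figure D2:**
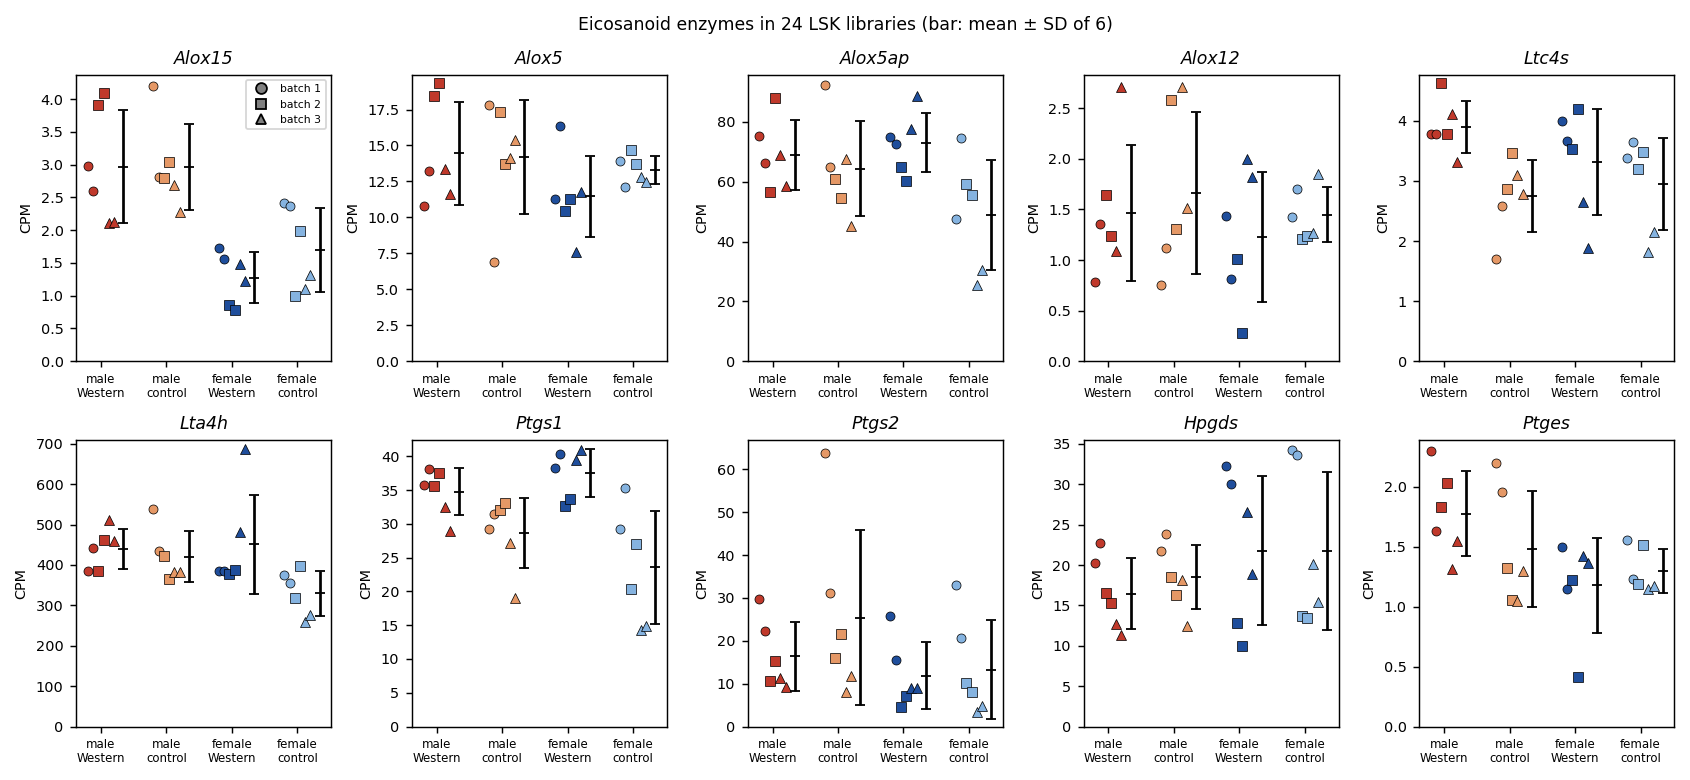
CPM of each enzyme in each of the 24 libraries (linear axes from 0), by group, with marker shapes for the 3 batches and a bar for the mean ± SD of 6 libraries. Ptgs1 in Western diet females lies at 32.6 to 40.9 CPM, and both control females of batch 3 lie at 14.3 and 14.9 CPM. Alox15 is higher in both male groups.

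In male pups no member was called, where 0.0102% of all genes were (2 genes by edgeR), and 1 of the 10 had an unadjusted p under 0.05 in edgeR, where 8.45% of all genes did. That member was Ltc4s, which had a lowest, median and highest value of 3.31, 3.79 and 4.62 CPM in Western diet males, against 1.70, 2.82 and 3.46 CPM in control males. Of the 6 Western diet males 5 lay above every control male, and the means were 3.90 ± 0.438 CPM in Western diet males and 2.75 ± 0.596 CPM in control males (SD, n = 6 each). The log2 fold change of Ltc4s was 0.49 (SE 0.19, edgeR adjusted p = 0.458), and 0.85, 0.41 and 0.33 within batches 1, 2 and 3. Of its exon bases, 26.4% overlap Gm26542 on the opposite strand. Likewise, DESeq2 and limma-voom called no member in males.

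Ptgs1 had a lowest, median and highest value of 28.9, 35.7 and 38.1 CPM in Western diet males, against 18.97, 30.4 and 33.1 CPM in control males. As in females, all 6 Western diet males lay above the control mean and 4 above every control. The log2 fold change was 0.28 (95% interval -0.03 to 0.59, edgeR adjusted p = 0.623). Alox15 averaged 2.97 ± 0.867 CPM in Western diet males and 2.97 ± 0.655 CPM in control males, a log2 fold change of 0.01 (95% interval -0.45 to 0.47). Ptgs2 averaged 16.4 ± 8.07 CPM in Western diet males and 25.4 ± 20.5 CPM in control males, with 5 of 6 Western diet males below the control mean and a log2 fold change of -0.45 (edgeR adjusted p = 0.662). The other 6 members had log2 fold changes between -0.18 and 0.30.

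Averaged over the sexes, Ptgs1 was again the 1 member called, where 5.7% of all genes were. It averaged 36.1 ± 3.67 CPM in pups of Western diet dams and 26.1 ± 7.18 CPM in pups of control dams (SD, n = 12 each), with all 12 Western diet libraries above the control mean. The log2 fold change was 0.51 (SE 0.11, edgeR adjusted p = 0.00475), 0.38 without both female control libraries of batch 3 (edgeR adjusted p = 0.0364), and 0.30 without all of batch 3 (edgeR adjusted p = 0.213). Alox5ap, at 0.37, also had all 12 Western diet libraries above the control mean (edgeR adjusted p = 0.1001). Ltc4s, at 0.33, had 10 of 12 above it (edgeR adjusted p = 0.141), and Lta4h, at 0.25, had 12 of 12 (edgeR adjusted p = 0.157). These control means include both low female control libraries of batch 3. Without that pair the log2 fold change was 0.21 for Alox5ap and 0.14 for Lta4h. Without all of batch 3 it was 0.14 for Alox5ap (edgeR adjusted p = 0.652) and 0.0091 for Lta4h (edgeR adjusted p = 0.977). Ltc4s stayed between 0.25 and 0.38 over 34 alternatives. The averaged comparison uses the same libraries as the 2 within-sex comparisons.

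Whether the diet effect differed between the sexes was tested as an interaction, and no member was called, where 0% of all genes were by edgeR and 8.32% had an unadjusted p under 0.05. Likewise 0 members were called by DESeq2 or limma-voom. Ptgs1 was the member with an unadjusted p under 0.05. Its male diet effect minus its female diet effect was -0.45 on the log2 scale (95% interval -0.89 to -0.01, edgeR adjusted p = 0.596). The interval for Alox5ap was -1.07 to 0.03 and that for Alox15 was -0.27 to 1.06. Over the 10 members the median log2 fold change for diet was 0.04 in males, against 0.02 over all genes tested, and 0.04 in females, against 0.03 over all genes.

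Alox15 was higher in male than in female pups. Because Alox15 may have been chosen on this difference, no p-value is given for it. Alox15 had a lowest, median and highest value of 2.10, 2.79 and 4.09 CPM in Western diet males, and of 0.784, 1.35 and 1.73 CPM in Western diet females. In control males the values were 2.27, 2.81 and 4.202 CPM, and in control females 1.00, 1.65 and 2.41 CPM. Of the 12 males 9 lay above every female, and all 12 lay above the female mean. The means were 2.97 ± 0.733 CPM in males and 1.49 ± 0.552 CPM in females (SD, n = 12 each), and the log2 fold change was 1.03.

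The Alox15 difference was 2.34-fold among pups of Western diet dams and 1.78-fold among pups of control dams. On the log2 scale it was 0.64 in batch 1, 1.67 in batch 2 and 0.85 in batch 3, and 0.72 without batch 2. In batch 2 the 4 males had 2.80 to 4.09 CPM and the 4 females 0.784 to 1.99 CPM. In batch 3 the 4 males had 2.10 to 2.69 CPM and the 4 females 1.10 to 1.48 CPM. In batch 1 the males had 2.60 to 4.202 CPM and the females 1.57 to 2.41 CPM. The share of all genes with such ranges is not given here, so nothing is read from them. Across all libraries the sexes overlapped, since the highest females, both control females of batch 1, exceeded the lowest males, which were in batch 3. In the fit over all genes 0.184% of genes passed the threshold between the sexes, and no call of Alox15 is read from that fit. Alox15 sits on chromosome 11, next to its relative Alox12e.

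Levels of markers of other cells stand beside this difference. The 9 eosinophil markers, among them Prg2, the major granule protein, summed to 344 to 1632 CPM in males, median 714, and 275 to 1369 CPM in females, median 467. By edgeR 0 of the 9 were called between the sexes, with 3 at an unadjusted p under 0.05, all higher in males, and their median log2 fold change was 0.34. Of all genes tested, 0.184% were called between the sexes and 12.4% had an unadjusted p under 0.05. The 13 monocyte and macrophage markers summed to 339 to 997 CPM in males, median 583, and 337 to 1704 CPM in females, median 700.3. Of these 13, 0 were called by edgeR and 5 had an unadjusted p under 0.05, all lower in males. Their median log2 fold change was -0.41. The 10 mast cell and basophil markers summed to 533 to 991 CPM in males, median 735, and 304 to 1024 CPM in females, median 574. By edgeR 0 of them were called, 5 had an unadjusted p under 0.05, all higher in males, and their median log2 fold change was 0.38. The 10 LSK markers summed to 1562 to 2869 CPM in males, median 1926, and 1123 to 2399 CPM in females, median 1711, with 6 at an unadjusted p under 0.05, all higher in males. Of these 10 LSK markers 1, Mecom, a stem cell transcription factor, was called higher in males (25.4 CPM in males and 18.2 CPM in females, log2 fold change 0.50, edgeR adjusted p = 0.0123). No marker on these lists was at 0 in all libraries. The part of these cells in the Alox15 difference was not tested.

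The other 9 members were not called between the sexes by edgeR, where 0.184% of all genes tested were. Ptgs2 came closest. It had 8.04 to 63.8 CPM in males and 3.31 to 33.1 CPM in females, with means of 20.9 ± 15.6 CPM in males and 12.6 ± 9.37 CPM in females (SD, n = 12 each), and 1 male lay above every female. The log2 fold change of Ptgs2 was 0.77 (SE 0.19, 95% interval 0.38 to 1.15, edgeR adjusted p = 0.108). DESeq2 (adjusted p = 0.0138), limma-voom (adjusted p = 0.0292) and edgeR without a filter (adjusted p = 3.79e-07) called it. It was 0.57, 1.11 and 0.75 within batches 1, 2 and 3, so each batch had the male mean higher. Ptges had a mean of 1.63 ± 0.432 CPM in males and 1.24 ± 0.301 CPM in females, with 10 of 12 males above the female mean and a log2 fold change of 0.37 (edgeR adjusted p = 0.352). It was 0.57, 0.63 and 0.02 within batches 1, 2 and 3.

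Hpgds was the member with a negative male over female value. It averaged 17.5 ± 4.13 CPM in males and 21.8 ± 9.07 CPM in females, a log2 fold change of -0.24 (edgeR adjusted p = 0.465). Its direction turned between batches, at -0.56 in batch 1, 0.42 in batch 2 and -0.56 in batch 3. The other 6 members had log2 fold changes between 0.09 and 0.23. Without Alox15 the median over the other 9 members was 0.16, with 8 of 9 above 0, against 0.01 over all genes tested, of which 53.03% were above 0.

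**Figure D3:**
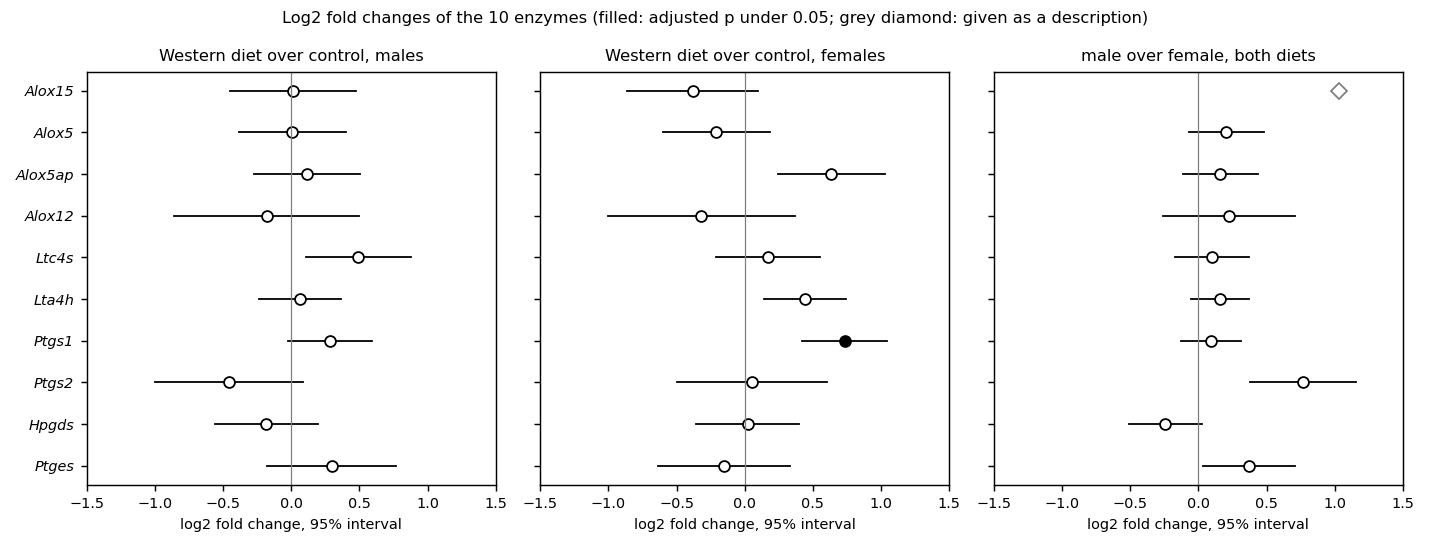
Log2 fold change with 95% interval of the 10 enzymes for Western diet over control in males (left), the same in females (middle) and male over female (right). The filled point past the threshold is Ptgs1 in females, at 0.73; the Alox15 sex difference, at 1.03, is drawn as a grey diamond without an interval because it is given as a description.

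Levels of Ptgs2 and Hpgds also varied with the labelled batch. Ptgs2 averaged 30.3 ± 14.8 CPM in batch 1, 11.7 ± 5.62 CPM in batch 2 and 8.29 ± 2.95 CPM in batch 3 (SD, n = 8 each). The lowest library of batch 1, at 15.6 CPM, lay above every library of batch 3, where the highest was 11.8 CPM. Hpgds averaged 27.4 ± 5.81 CPM in batch 1, 14.6 ± 2.65 CPM in batch 2 and 16.97 ± 5.06 CPM in batch 3, and every batch 1 library, at 20.2 CPM or more, lay above every batch 2 library. The summed monocyte and macrophage markers followed the batch order of Hpgds, with medians of 1171 CPM in batch 1, 477 CPM in batch 2 and 537 CPM in batch 3. So did the mature erythroid markers, with medians of 3843, 2581 and 2594 CPM in batches 1, 2 and 3. The B cell markers, with medians of 499, 327 and 286 CPM in batches 1, 2 and 3, and the neutrophil markers, with 78.8, 59.3 and 43.3 CPM, followed the batch order of Ptgs2. Their part in the batch differences was not tested. Since each batch held 2 libraries of each group, batch was balanced over the groups and entered the fit as a term.

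**Figure D4:**
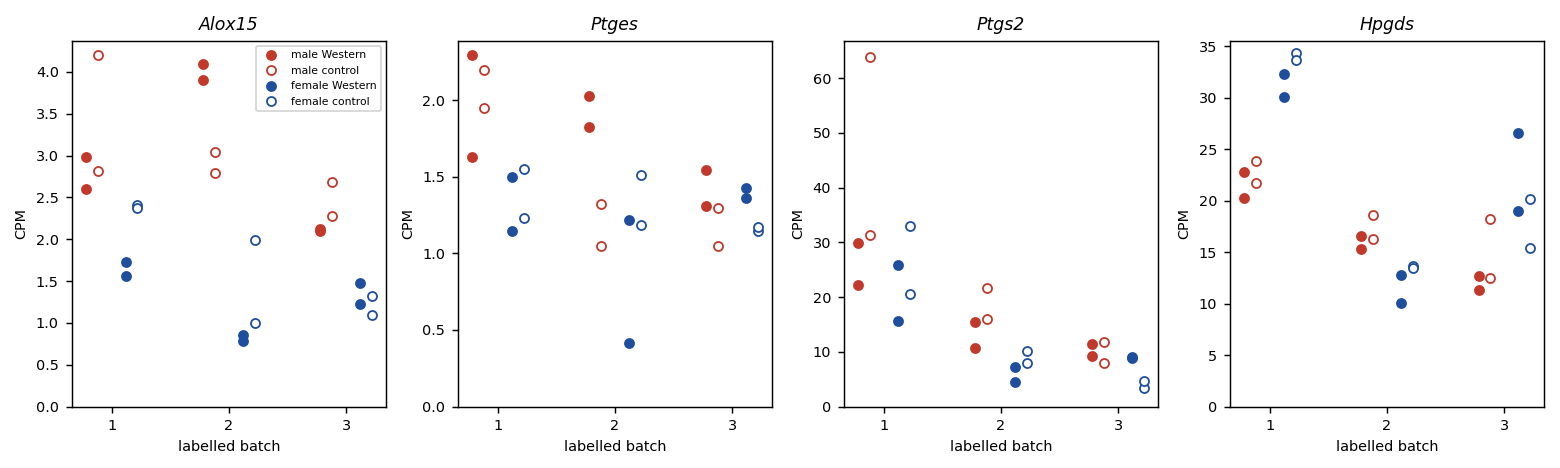
CPM of Alox15, Ptges, Ptgs2 and Hpgds in each library by labelled batch, males (red) left of females (blue), with filled points for Western diet and open points for control. The male mean of Alox15 is higher than the female mean within each batch, and Ptgs2 and Hpgds have their highest means, 30.3 and 27.4 CPM, in batch 1.

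The genes most like each member were taken as those with the highest Spearman correlation of CPM over the 24 libraries among 12018 genes. By this choice such genes tend to share the member's group and batch pattern, so their levels below are a description only. The libraries share group, batch and depth, so the value after subtracting group and batch means is given as well. For Alox15 these were Rgs5 (rho 0.86), a regulator of G protein signalling known from pericytes, Gimap3 (rho 0.81) and the Y-linked helicase gene Ddx3y (rho 0.80). After group and batch means were subtracted, rho was 0.69 for Rgs5, 0.68 for Gimap3 and -0.11 for Ddx3y. Rgs5 averaged 2.40 ± 0.701 CPM in Western diet males and 1.05 ± 0.428 CPM in Western diet females, and 2.10 ± 0.286 CPM in control males and 1.28 ± 0.368 CPM in control females (SD, n = 6 each).

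For Ptgs2 the nearest genes were Il10, an anti-inflammatory cytokine (rho 0.93), Birc3, an inhibitor of cell death (rho 0.93), and Irf4, a lymphoid and myeloid transcription factor (rho 0.93). All shared its order of batches, and Il10 averaged 4.22 ± 1.60, 1.14 ± 0.871 and 0.806 ± 0.393 CPM in batches 1, 2 and 3 (SD, n = 8 each). After subtraction rho was 0.70 for Il10, 0.77 for Birc3 and 0.62 for Irf4. For Hpgds the nearest were Abcg3 (rho 0.97), Ms4a7 (rho 0.97), a macrophage membrane protein, and Fcna (rho 0.96), a ficolin of macrophages. Fcna averaged 106 ± 47.6, 31.4 ± 7.75 and 45.5 ± 27.9 CPM in batches 1, 2 and 3, and rho with Hpgds after subtraction was 0.93 for Fcna, 0.87 for Abcg3 and 0.89 for Ms4a7.

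For Ptgs1 the nearest were Tmem273 (rho 0.86), Tgfbi (rho 0.84), a secreted matrix protein, and Cd200r1 (rho 0.82), an inhibitory receptor, with 0.88, 0.69 and 0.62 after subtraction. For Lta4h they were Clec5a (rho 0.89), Fcgr2b (rho 0.87) and Anxa3 (rho 0.87), with 0.81, 0.88 and 0.87 after subtraction. For Alox5ap they were Phyh (rho 0.90), Srgn (rho 0.89), the proteoglycan of secretory granules, and Ift22 (rho 0.89), with 0.90, 0.89 and 0.91 after subtraction. Ltc4s was most like Dab2ip (rho 0.87), Mdfi (rho 0.85) and Vwa8 (rho 0.84), with 0.65, 0.76 and 0.63 after subtraction. Alox5 was most like Ankfy1 (rho 0.81), Vps39 (rho 0.75) and Eps15l1 (rho 0.75), with 0.81, 0.74 and 0.79 after subtraction. The rare members had lower values, with Kcnj8, Ackr1 and Adcy4 at 0.76 to 0.71 for Alox12, and Fam3b, Chad and Scin at 0.72 to 0.70 for Ptges. After subtraction these were 0.63, 0.68 and 0.56 for Alox12, and 0.51, 0.56 and 0.42 for Ptges. No member was among the 3 nearest genes of another.

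Around the 10 enzymes, lists of other eicosanoid genes held 78 genes, of which 66 were tested. These lists, like the marker lists, were chosen with earlier results of these data known. Counts of called genes on them are therefore a description only. In females 3 rose and 6 fell with Western diet, against 2.2% and 3.22% of all genes tested, and the median log2 fold change of the 66 was -0.01. In males 0 were called by edgeR and 10 had an unadjusted p under 0.05, where 0.0102% and 8.45% of all genes did, and the median was 0.03. Averaged over the sexes 3 rose and 6 fell, against 2.19% and 3.51% of all genes. In the interaction 0 were called by edgeR and 7 had an unadjusted p under 0.05, where 8.32% of all genes did. Between the sexes 0 were called by edgeR and 20 had an unadjusted p under 0.05, where 12.4% of all genes did.

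Upstream of the enzymes, 5 of 11 phospholipases and related lipases tested changed in females, where 5.42% of all genes tested were called. Pla2g4a, the cytosolic phospholipase that supplies arachidonic acid, averaged 92.1 ± 8.96 CPM in Western diet females and 60.9 ± 11.04 CPM in control females, a rise of 0.62 on the log2 scale ( edgeR adjusted p = 0.00658). In males it averaged 85.01 ± 14.7 CPM with Western diet and 87.8 ± 24.3 CPM with control (log2 fold change -0.04). Abhd6, a monoacylglycerol lipase, also rose in females (0.47, edgeR adjusted p = 0.0288). Mgll, the main monoacylglycerol lipase, averaged 12.1 ± 3.00 CPM in Western diet females and 28.8 ± 10.7 CPM in control females, and so fell by 1.20 on the log2 scale (edgeR adjusted p = 1.02e-04). Pla2g12a, a secreted phospholipase and the most abundant of its list per length at 13.2 RPKM, fell too, with a log2 fold change of -1.12, as did Pla2g4c, at -0.96. In males the log2 fold changes were 0.15 for Abhd6, -0.73 for Mgll, -0.54 for Pla2g12a and -0.75 for Pla2g4c. Of the 11 genes 0 were called in males by edgeR, where 0.0102% of all genes were. At an unadjusted p under 0.05 there were 3, all lower, where 8.45% of all genes had such a p.

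Beside the leukotriene enzymes, Mgst3, a microsomal glutathione transferase related to Ltc4s, averaged 57.3 ± 13.1 CPM in Western diet females and 122 ± 33.3 CPM in control females, and so fell by 1.08 on the log2 scale (edgeR adjusted p = 1.23e-04). It was the 1 of 7 on its list that changed. Among 10 genes of breakdown and transport, Slco3a1, a prostaglandin transporter, rose (0.91, edgeR adjusted p = 0.00276) and Ephx2, the soluble epoxide hydrolase, fell (-0.79, edgeR adjusted p = 0.00851). Ptgr1, which reduces prostaglandins and inactivates leukotriene B, rose in the average over the sexes (0.43, edgeR adjusted p = 0.0438). Of 10 regulators, Gpx4, which reduces lipid peroxides, fell in females (-0.34, edgeR adjusted p = 0.0301).

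Without both female control libraries of batch 3, 4 of these 9 genes remained called in females, Ephx2, Mgll, Mgst3 and Pla2g12a, all of them lower, and all 9 kept their direction. Without all of batch 3 the same 4 genes remained. In the average over the sexes 6 remained without the female control pair and 4 without batch 3. Of the mature erythroid markers, 5 of 10 fell in females, against 3.22% of all genes, and 8 of 10 in the average, against 3.51%. Without both female control libraries of batch 3 these were 3 and 8, and without all of batch 3 they were 3 and 4. The markers had a summed level of 855 to 3097 CPM in Western diet females, median 2077, and 2049 to 9072 CPM in control females, median 3800. In males 0 of the 10 were called by edgeR, where 0.0102% of all genes were. All 10 were lower in Western diet males at an unadjusted p under 0.05, where 8.45% of all genes had such a p. The markers summed to 1408 to 3534 CPM in Western diet males and 3450 to 7399 CPM in control males, median 5521. Their part in the fall of these genes was not tested.

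Of the 8 prostanoid synthases tested 0 were called in females by edgeR, where 5.42% of all genes tested were, and 3 had an unadjusted p under 0.05. Unadjusted counts in this paragraph stand without the share of all genes in females, so nothing is read from them. The most abundant synthase per length was Ptges3, at 436 RPKM. The 8 prostanoid receptors tested, led by Tbxa2r at 7.68 RPKM, and the 6 receptors for leukotrienes and related lipids, led by Gpr132 at 12.0 RPKM, also held no called gene, with 1 and 0 at an unadjusted p under 0.05. Neither did the 3 other lipoxygenases tested, where Alox12e reached 0.264 RPKM, or the 3 epoxygenases, led by Cyp2j9 at 4.89 RPKM. The most abundant gene of the regulator list was Gpx1, at 1177 RPKM.

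**Figure D5:**
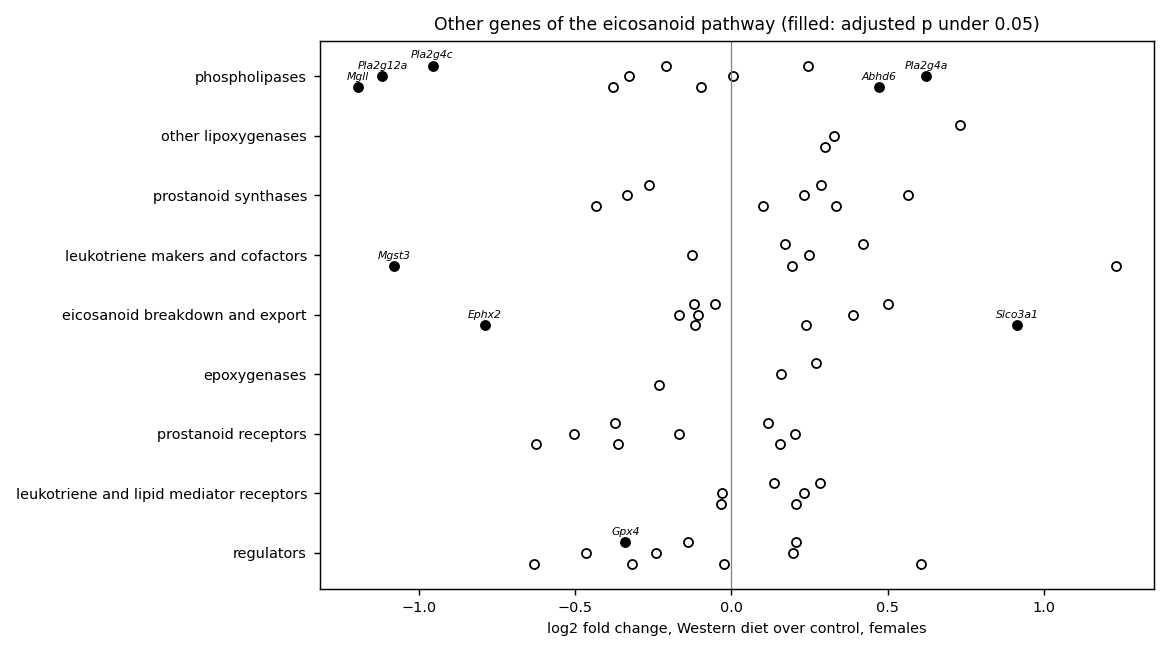
Log2 fold change for Western diet over control in females of the 66 other eicosanoid genes tested, by role, with filled points for the 9 called. Filled points lie on both sides of 0 and none is a prostanoid synthase or a receptor.

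Markers of some other cell types moved with diet as well. The eosinophil markers summed to 352 to 1369 CPM in Western diet females, median 794, and 275 to 494 CPM in control females, median 428. In males they summed to 598 to 1632 CPM with Western diet, median 737, and 344 to 734 CPM with control, median 491. Of the 9 markers 2 rose in females, Prg2 and Prg3, and 4 rose in the average, where 2.2% of all genes rose in females and 2.19% in the average. In males 0 were called by edgeR and 4 had an unadjusted p under 0.05, where 0.0102% and 8.45% of all genes did. Mast cell and basophil markers, led by Prss34, had 0 of 10 called in females by edgeR (3 at an unadjusted p under 0.05) and 2 higher in the average. Of 10 LSK markers Mecom and Meis1 rose in females, by 0.55 and 0.52 on the log2 scale. The 10 B cell markers, led by Igkc, had 3 higher in females, and the 12 T, NK and innate lymphoid markers, led by Nkg7, had 1. In the average these were 2 and 1, and 0 LSK markers were called by edgeR. Without both female control libraries of batch 3, edgeR called 0 eosinophil, LSK, B cell, and T, NK and innate lymphoid markers in females. In the average without that pair it called 3 eosinophil markers and 1 T, NK and innate lymphoid marker, Nkg7. It called 0 mast cell and basophil, B cell and LSK markers there. Monocyte and macrophage markers, led by Vcam1, and neutrophil markers, led by S100a8, had 0 called by edgeR in any of the 5 comparisons, with 1 and 0 at an unadjusted p under 0.05 in females. The unadjusted counts in females stand without the share of all genes, so nothing is read from them. What these cells contributed to the Ptgs1 and Alox5ap differences was not tested.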

How the data were processed

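RNA was measured in 24 libraries of sorted LSK cells, made with a low-input polyA kit from RNA with a RIN above 8.0, per the labels' protocols. The deposited files hold raw counts per gene, and build GRCm39 with FastQC, cutadapt, STAR, HTSeq and DESeq2 is named in the submitters' processing notes, with versions not given in the sources used here. Between 31.0 and 39.3% of each file's total lay in closing lines without a gene, which were left out.

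Symbols and exon lengths came from an annotation of an older build (52081 of 55414 identifiers matched). RPKM divides CPM by exon length. Counts were fitted in edgeR 4.0.16 under R 4.3.3 (filterByExpr, TMM factors 0.932 to 1.05, robust quasi-likelihood model of group and batch on all 24 libraries). P-values are two-sided, adjusted by Benjamini-Hochberg over the 19616 genes and called under 0.05. The most alike libraries still had a chi-square of 17.2 per degree of freedom, where sampling noise alone gives about 1. DESeq2 1.42.0 and limma 3.58.1 (voom with quality weights) served as alternatives, as did another scaling, no filter, no batch term, a replicate block, the compared groups alone, and leaving out libraries or batches. The fit was tested on simulated data.

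The members and lists were chosen with earlier results of these data known. All members are named, with every called gene and the most abundant gene per length of each pathway list, the 3 genes most like each member above a mean of 1 CPM, and the most abundant gene of each marker list, except 1 list that is not reported here.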

Additional observations from a re-analysis of the deposited data

Results flagged for a closer look

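Of 40 groups of 6 libraries (10 enzymes in 4 groups), 3 held a library whose gap to its nearest neighbour exceeded Dixon's critical value at the 95% level, and chance flags about 1 group in 20. Lta4h, the leukotriene A hydrolase, had 688.2 CPM in Western diet female 6, while the other 5 libraries of the group had 378.4 to 481.4 CPM (gap 0.667 of the range). Ptges had 0.414 CPM in Western diet female 4, while the others had 1.14 to 1.496 CPM (gap 0.675 of the range). Alox5 had 6.90 CPM in control male 2, while the others had 13.7 to 17.8 CPM (gap 0.626 of the range).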

How the results depend on the processing

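Over 35 alternatives, 1625 of 1720 enzyme values kept their direction and their side of the threshold, 5 lost a call, 12 gained one and 78 changed sign. The cause of these changes was not tested. For diet in females the 1 enzyme called became 3 without a filter (Ptgs1, Alox5ap and Lta4h) and 2 by DESeq2, and 0 on the compared groups alone, without batch 3, or without both female control libraries of batch 3. Single libraries left out gave 1 to 2. For diet averaged over the sexes it became 2 without a filter and 0 without batch 3, with 1 to 2 when single libraries were left out. Between the sexes Alox15 is left aside. Of the other 9 enzymes 0 were called in the main fit, and 1, Ptgs2, was called without a filter, by DESeq2 and by limma-voom. Its log2 fold change was 0.76 without a filter and 0.77 in the main fit, so the adjusted p moved far more than the difference. The shares of all genes called under these alternatives are not given here, so an added call is not read as support. Alternatives added after seeing the data gave 4 other pathway genes called in females, against 9, without batch 3 or without both female control libraries of batch 3, and 4 in the average without batch 3. The marker counts without these libraries, also added then, stand in the report.

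Replicate numbers did not pair the libraries: over the 18 separate correlations of deviations from group and batch means, values ran from -0.171 to 0.177, 2 above 0.1. With the replicate block, Ptgs1 in females stood at 0.74 (edgeR adjusted p = 0.0100) and no enzyme's call changed.

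The sign changes concerned uncalled values. For diet in males, Alox15 was -0.0050 with DESeq2's size factors, -0.0024 without a filter, -0.037 on the compared groups, -0.30 without batch 2, -0.0056 by DESeq2 and -0.010 by limma-voom. Alox5 was -0.010, -0.0064, -0.0045 and -0.17 under the first 4 of these, -0.0036 without both female control libraries of batch 3 and -0.010 by DESeq2. Alox5ap was -0.0063 without batch 2 and Lta4h -0.072 without batch 3. For diet in females, Hpgds was -0.034 on the compared groups, -0.17 without batch 3 and -0.0034 without the female control pair, Ptges was 0.098 without batch 2, and Ptgs2 was -0.17 without a batch term, -0.48 without batch 3, -0.28 without the pair and -0.14 by limma-voom. In the average, Alox5 was 0.0034 without batch 3 and 0.043 by limma-voom, and Ptges -0.045 and -0.0077 under the same alternatives. In the interaction, Alox12 was -0.041 without batch 1, Alox15 -0.083, Alox5 -0.035 and Ptges -0.037 without batch 2, and Hpgds 0.060 without batch 3. Between the sexes, Alox12 was -0.11 and Ptgs1 -0.022 without batch 2, Ltc4s -0.18 without batch 3 and -0.014 without the pair, and Ptgs1 -0.027 without the pair. Leaving out single libraries gave -0.13 to 0.097 for Alox15, -0.16 to 0.11 for Alox5 and -0.34 to 0.068 for Alox12 in males, -0.12 to 0.13 for Hpgds, -0.25 to 0.035 for Ptges and -0.11 to 0.22 for Ptgs2 in females, and -0.083 to 0.41 for Alox12 in the interaction. Low counts of Alox12, Ptges and Alox15 limit their precision.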
